A study of Drosophila melanogaster with 36 samples.

Results

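The proteasome subunit mRNAs were the transcripts of all genes whose FlyBase symbol begins with Prosalpha, Prosbeta, Rpn or Rpt. The annotation holds 48 such genes, and the deposited tables listed 36 of them, among 10226 genes listed in all. Drosophila melanogaster embryos of both genotypes studied, orb2-delta-zz and wild type, were lysed and sedimented through sucrose. In orb2-delta-zz the ZZ domain, a zinc-binding module, is deleted from ORB2, a CPEB-type protein that binds mRNA, and wild type was the w1118 control, described in the labels as pre-injected. Embryos were collected 0-1h, 1-2h and 2-3h after egg lay from flies kept at 25 ºC, and lysed in the presence of cycloheximide, which holds ribosomes on mRNA. Pools 1 and 3 of each 15-45% sucrose gradient were sequenced. The 36 libraries form 12 groups of genotype, window and pool, with 3 replicates in each. What sedimented in pool 1 or in pool 3 is not given in the labels, and nothing in them says that replicates came from separate collections, so p-values measure the spread between these gradients.

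The proteasome is the protease that degrades proteins tagged with ubiquitin. Its core particle is a barrel of alpha rings, which gate the entrance, and beta rings, which hold the proteolytic sites. The regulatory particle caps the barrel: the ATPases of its base (Rpt subunits) unfold the substrate, and its lid, with the deubiquitinase Rpn11, removes the ubiquitin chain. In the first hours of the embryo the mother supplies both mRNA and protein, and the maternal mRNA is cleared as the embryo's own transcription starts.

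The listed mRNAs covered the core and regulatory particles, apart from Sem1, a small lid subunit whose symbol the rule does not take. All 14 core genes were listed, 7 of the alpha ring (Prosalpha1 to Prosalpha7) and 7 of the beta ring (Prosbeta1 to Prosbeta7). All 18 regulatory genes of the rule were listed. They were 10 of the base (Rpt1 to Rpt6, Rpn1, Rpn2, Rpn10 and Rpn13) and 8 of the lid (Rpn3, Rpn5 to Rpn9, Rpn11 and Rpn12). Of 16 paralogs, which are extra copies of subunit genes, 4 were listed: Prosalpha1R, Prosbeta2R2, Rpt3R and Rpt6R. A table holds only genes above 0 in all 12 libraries of its window, so the other 12 paralogs had no complete set of values. The members listed numbered 35 at 0-1h, when Prosbeta2R2 was missing, and 36 at 1-2h and at 2-3h. Of these, 34, 34 and 36 passed the filter of a mean of at least 10 normalized counts. The listed genes lie on chromosome arms 2L (4), 2R (11), 3L (5), 3R (12) and X (4), so no arm holds most of them. Core transcripts are short, with 794 to 1176 nt (median 958.5), against 995 to 3325 nt for regulatory transcripts (median 1476.5).

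Subunit mRNAs were abundant. At 0-1h the median TPM (the share of a transcript in its library, scaled per length) over the 12 libraries was highest for Prosbeta2 (554 TPM), which carries the trypsin-like site, and for Prosalpha2 (462 TPM). It was lowest among subunits for Prosalpha1 (42.4 TPM), whose paralog Prosalpha1R reached 261 TPM. The paralogs Rpt3R (1.4 TPM) and Rpt6R (0.15 TPM) were far below the subunits that they resemble, Rpt3 (99.8 TPM) and Rpt6 (235 TPM).

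Library totals lay between 2.16e+07 and 4.73e+07 normalized counts, and no pair of libraries was identical. The orb2 mRNA was listed in every library, with 580 to 1929 normalized counts in orb2-delta-zz and 277 to 2328 in wild type, and a level per gene cannot show the loss of a domain. Libraries differed in markers of older embryos. The muscle and nerve genes taken as late-embryo markers (4, 7 and 8 of 11 listed at 0-1h, 1-2h and 2-3h) summed in pool 3 to 568, 1.08 and 23.9 TPM in orb2-delta-zz at 0-1h, against 24.8, 3.86 and 1.82 TPM in wild type. At 1-2h the sums were 72.5, 82.6 and 305 TPM in orb2-delta-zz, against 15.6, 647 and 1.09 TPM in wild type. At 2-3h they were 170, 991 and 389 TPM in orb2-delta-zz, against 33.9, 1113 and 10.9 TPM in wild type. The replicate that stood above the others of its group was replicate 1 in both genotypes at 0-1h and replicate 2 in both at 2-3h. At 1-2h it was replicate 3 of orb2-delta-zz and replicate 2 of wild type. Of the egg-shell and follicle-cell markers 0 of 9 were listed, and of the sperm markers at most 1 of 10, at up to 0.196 TPM.

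The first comparison asks how the subunit mRNAs changed over the maternal-to-zygotic transition. In pool 3 most regulatory mRNAs fell and most core mRNAs did not. There, 15 of 18 regulatory mRNAs were lower at 2-3h than at 0-1h in orb2-delta-zz, and 15 of 18 in wild type, with median log2 differences of -1.45 and -1.44. In the same pool 8 of 14 core mRNAs rose in orb2-delta-zz and none fell (median 0.35), while 3 rose and 1 fell in wild type (median -0.01). Over all genes of pool 3, 26.3% rose and 37.3% fell in orb2-delta-zz, and 23.3% rose and 45.4% fell in wild type. All log2 differences of this comparison are of TPM + 1 from limma, the median over all genes tested was -0.08 in pool 3 of orb2-delta-zz and -0.29 in pool 3 of wild type, and in bulk samples fewer cells and less RNA per cell cannot be told apart.

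Among members in pool 3 the steepest decline was that of a lid mRNA, Rpn8 in orb2-delta-zz and Rpn7 in wild type. Rpn11, the deubiquitinase of the lid, had 50.6, 71.0 and 82.7 TPM in pool 3 of orb2-delta-zz at 2-3h, against 370, 380 and 404 TPM at 0-1h. Wild type had 86.5, 113 and 125 TPM in pool 3 at 2-3h, against 337, 350 and 355 TPM at 0-1h. The windows did not overlap in either genotype, and Rpn11 fell by 2.51 ± 0.20 (SE) on the log2 scale in orb2-delta-zz (limma adjusted p = 2.57e-12) and fell by 1.69 ± 0.20 in wild type (limma adjusted p = 9.21e-09).

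Rpn8, the partner of Rpn11, had 28.3, 31.6 and 36.1 TPM in pool 3 of orb2-delta-zz at 2-3h, against 174, 201 and 212 TPM at 0-1h. Wild type had 38.6, 46.7 and 50.1 TPM at 2-3h, against 180, 191 and 195 TPM at 0-1h. Rpn8 fell in both genotypes, with log2 differences of -2.58 in orb2-delta-zz and -2.05 in wild type. Rpn7, another lid subunit (-2.47 in orb2-delta-zz and -2.08 in wild type), and Rpn1, a scaffold of the base (-2.28 in orb2-delta-zz and -1.84 in wild type), also fell.

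The regulatory particle was not uniform, since 3 of its mRNAs did not fall in pool 3. Rpt4, an ATPase of the base, had 301, 302 and 310 TPM in orb2-delta-zz at 2-3h, against 163, 207 and 215 TPM at 0-1h. In wild type it had 304, 314 and 322 TPM at 2-3h, against 184, 231 and 236 TPM at 0-1h. It rose in both genotypes, by 0.65 ± 0.16 in orb2-delta-zz (limma adjusted p = 0.000762) and by 0.54 ± 0.16 in wild type (limma adjusted p = 0.00385). Rpn12, a lid subunit, rose in orb2-delta-zz (0.37, limma adjusted p = 0.00808), with a difference of 0.14 in wild type that did not pass the test (limma adjusted p = 0.309). Rpn6, which in yeast clamps the lid to the core, had differences of 0.17 in orb2-delta-zz and -0.01 in wild type, neither of which passed.

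Core mRNAs in pool 3 moved little by comparison. Prosbeta4 had 584, 604 and 623 TPM in orb2-delta-zz at 2-3h, against 371, 396 and 401 TPM at 0-1h. In wild type it had 566, 570 and 605 TPM at 2-3h, against 457, 468 and 502 TPM at 0-1h. The windows did not overlap, and the mRNA rose by 0.63 ± 0.11 in orb2-delta-zz (limma adjusted p = 5.28e-06) and by 0.29 ± 0.11 in wild type (limma adjusted p = 0.0171). Prosbeta7 also rose, by 0.50 in orb2-delta-zz and 0.35 in wild type, and Rpt3R, a low paralog, rose by 0.54 and 0.61. Prosalpha3 was the core mRNA that fell in wild type. The count of core mRNAs that rose in wild type was 1 without wild type 0-1h replicate 2, without 0-1h replicate 3 and without 2-3h replicate 2, while 15 regulatory mRNAs fell there without any 1 of the 6 wild-type gradients.

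In pool 1 the median of all genes also fell between these windows (-1.12 in orb2-delta-zz and -1.36 in wild type), and 33 of 34 members fell in orb2-delta-zz and 32 of 34 in wild type. Regulatory mRNAs fell further than core mRNAs, with medians of -2.01 against -1.24 in orb2-delta-zz and -2.85 against -1.52 in wild type. The largest falls in orb2-delta-zz and wild type were those of Rpn11 (-4.14 and -4.16), Rpt5 (-3.42 and -3.85), Rpn8 (-3.28 and -4.56) and Prosalpha1R (-3.09 and -3.88). The smallest falls were those of Rpt1 (-0.42), Prosalpha3 (-0.45), Prosbeta1 (-0.49) and Prosalpha5 (-0.49) in orb2-delta-zz, and of Rpn12 (-0.82), Prosalpha5 (-1.27), Rpt1 (-1.30) and Prosalpha6 (-1.36) in wild type.

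Of all genes in orb2-delta-zz, 14.1% rose and 66.1% fell in pool 1, while 26.3% rose and 37.3% fell in pool 3. Of all genes in wild type, 15.3% rose and 69.8% fell in pool 1, while 23.3% rose and 45.4% fell in pool 3. Falls were thus the more frequent call over all genes of pool 1 too. With libraries scaled by their median ratio, the split of all 34 members was 8 against 18 (higher against lower) in pool 1 of orb2-delta-zz, 17 and 15 in its pool 3, 6 and 20 in pool 1 of wild type, and 15 and 15 in its pool 3. Of all genes on that scale, 44.3% rose and 35.7% fell in pool 1 of orb2-delta-zz, 42% and 33.1% in its pool 3, 44.8% and 37.3% in pool 1 of wild type, and 41.5% and 36.5% in its pool 3. On that scale the core counts were 5 higher and 1 lower (pool 1) and 12 and 0 (pool 3) in orb2-delta-zz, and 3 and 3 (pool 1) and 10 and 0 (pool 3) in wild type. For regulatory mRNAs, each genotype had 2 that rose and 16 that fell in pool 1, and 3 that rose and 15 that fell in pool 3. The direction of the core mRNAs in pool 1 therefore depends on the scaling, and the fall of most regulatory mRNAs does not.

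The ratio of the 2 particles needs no scaling between libraries. The median core TPM over the median regulatory TPM was 1.60 to 2.14 in the 12 libraries at 0-1h. At 1-2h it was 1.00 to 1.46 in pool 1 of orb2-delta-zz and 1.19 to 1.502 in pool 1 of wild type, against 2.15 to 2.77 in pool 3 of orb2-delta-zz and 2.55 to 3.26 in pool 3 of wild type. At 2-3h it was 3.00 to 4.17 in pool 1 and 4.82 to 5.84 in pool 3 of orb2-delta-zz, and 3.95 to 6.18 in pool 1 and 4.87 to 5.91 in pool 3 of wild type. Every library at 2-3h was above every library at 0-1h, in both pools and genotypes.

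**Figure D1:**
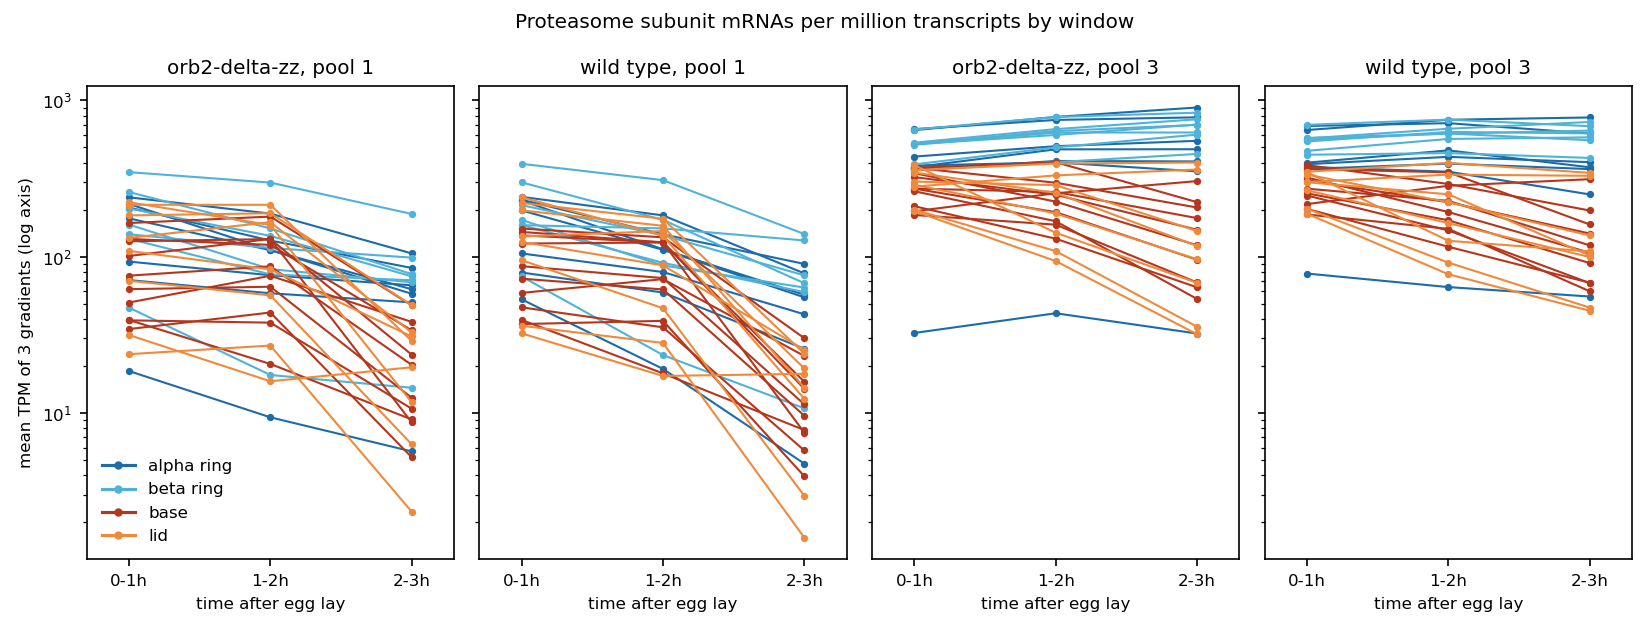
Mean TPM of 3 gradients (log axis) by window after egg lay for each of the 32 subunit mRNAs, in pool 1 and pool 3 of orb2-delta-zz and wild type. Except for Prosalpha1, alpha and beta ring mRNAs (blue) stay together in pool 3. Most base and lid mRNAs (red and orange) lie below them there in every window, and furthest below at 2-3h.

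The second comparison sets orb2-delta-zz against wild type within each pool and window. The widest difference of the particle lay in pool 1 at 2-3h, where 10 of 18 regulatory mRNAs and 2 of 14 core mRNAs were higher in orb2-delta-zz than in wild type, and no subunit of either particle was lower. Of all 36 members, 12 were called higher, against 14.4% of all genes tested, and 2 were called lower, against 9.48% of all genes. The median log2 difference of normalized counts + 1 was 0.70 over the regulatory mRNAs, 0.22 over the core mRNAs and -0.03 over all genes. The 10 regulatory mRNAs came from the base (Rpt1, Rpt2, Rpt3, Rpt6, Rpn10 and Rpn13) and the lid (Rpn3, Rpn5, Rpn8 and Rpn9), and the core mRNAs were Prosalpha3 and Prosalpha5. The mRNAs lower in orb2-delta-zz were the paralogs Prosalpha1R and Rpt3R. Same-numbered replicates of the genotypes deviated together here, and with the replicate number as a block 15 members were higher (21.5% of all genes) and 2 lower (19.8%), with 5 core mRNAs among the higher ones, Prosalpha2, Prosbeta2 and Prosbeta5 besides the pair named.

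Rpt6, an ATPase of the base, had 2874, 2615 and 4183 normalized counts in orb2-delta-zz, against 1123, 1942 and 1399 in wild type. The groups did not overlap, and replicate 3 of orb2-delta-zz was the highest library. The log2 difference was 1.12 ± 0.21 (limma adjusted p = 0.00437).

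Among lid mRNAs, Rpn8 had 604, 504 and 779 normalized counts in orb2-delta-zz, against 339, 276 and 278 in wild type, a log2 difference of 1.06 ± 0.23 (limma adjusted p = 0.00832). Rpn5, a structural lid subunit, had 5239, 5479 and 8973 normalized counts in orb2-delta-zz, against 2217, 4071 and 3204 in wild type, a log2 difference of 1.05 ± 0.24 (limma adjusted p = 0.0103). The genotypes did not overlap for either mRNA, and replicate 3 of orb2-delta-zz was again the highest.

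Prosalpha3, of the alpha ring, had 3358, 2962 and 3202 normalized counts in orb2-delta-zz, against 1659, 1552 and 1577 in wild type. The groups lay apart, with replicates close to each other in both, and the log2 difference was 0.99 ± 0.14 (limma adjusted p = 0.00101). Prosalpha5 had 3816, 3435 and 3621 normalized counts in orb2-delta-zz, against 2822, 1987 and 2335 in wild type (log2 difference 0.62 ± 0.15, limma adjusted p = 0.0124). The other called subunit mRNAs lay between 0.68 (Rpn13, a ubiquitin receptor) and 0.95 (Rpn3). None of the 12 overlapped between genotypes, but the test on these same libraries picked them. The share of all genes without overlap is not given.

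**Figure D2:**
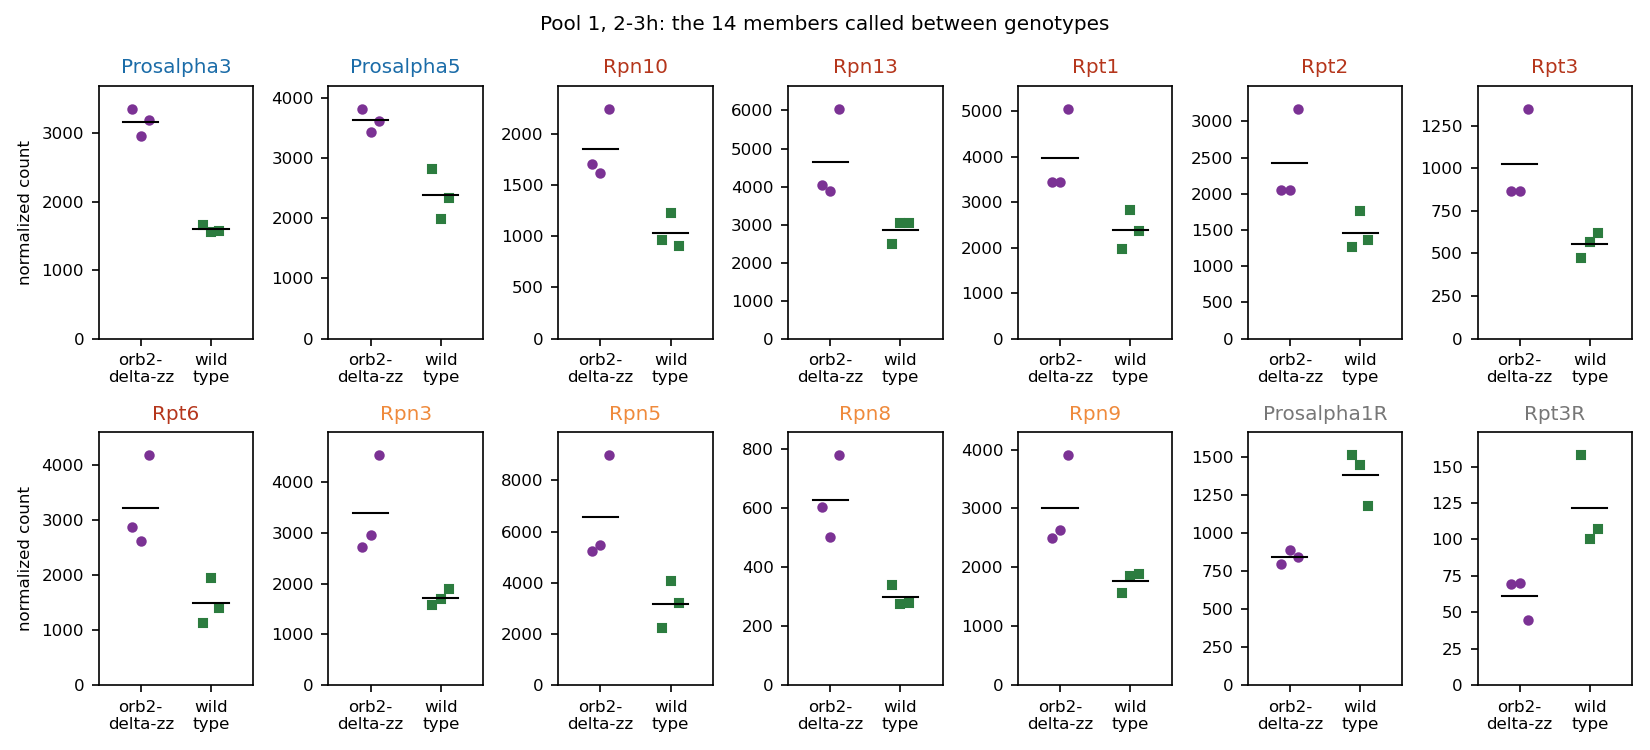
Normalized counts in pool 1 at 2-3h of the 14 members called between genotypes, with each of 3 libraries as a point and the mean as a line, orb2-delta-zz at the left and wild type at the right of each panel, axes from 0. The genotypes do not overlap in any panel, where the members shown were picked by the test on these same libraries. Of them, 12 mRNAs are higher and 2 paralogs lower in orb2-delta-zz.

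Single gradients set how many of these mRNAs passed. The regulatory count of 10 was 5 when orb2-delta-zz replicate 3 was left out, 4 without wild type replicate 1 and 5 without its replicate 3, and stayed at 10 without wild type replicate 2, the gradient with the most late-embryo marker RNA. The core count of 2 was 1 without wild type replicate 3. Prosalpha3, Rpt6, Rpn8 and Rpn3 were called in all of the alternatives run, with adjusted p of at most 0.0468.

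Stage markers also differed between genotypes at this window. The early zygotic markers (11 of 11 listed) summed in pool 1 to 986 to 1434 TPM in orb2-delta-zz, against 2588 to 2747 TPM in wild type, and in pool 3 to 4720 to 6819 TPM, against 8606 to 12318 TPM. The maternal markers (9 of 9 listed) summed in pool 1 to 909, 912 and 1491 TPM in replicates 1, 2 and 3 of orb2-delta-zz. Wild type had 363, 528 and 547 TPM. Replicate 3 of orb2-delta-zz thus held the most and replicate 1 of wild type the least. Leaving out either cut the regulatory count, as did leaving out wild type replicate 3. In pool 3 the maternal markers summed to 3392 to 4963 TPM in orb2-delta-zz, against 1389 to 2086 TPM in wild type. The genotypes did not overlap in any of these sums, whereas the late-embryo markers summed in pool 1 to 15.6 to 153 TPM in orb2-delta-zz, against 3.05 to 160 TPM in wild type. The early zygotic markers were also lower in orb2-delta-zz without overlap at the earlier windows. At 0-1h (10 of 11 listed) they had 48.9 to 75.3 against 152 to 172 TPM in pool 1, and 322 to 399 against 836 to 1250 TPM in pool 3. At 1-2h they had 334 to 512 against 593 to 960 TPM, and 1435 to 2380 against 3117 to 4778 TPM. The maternal markers overlapped between genotypes at both earlier windows. The part of embryo stage in the difference of the subunit mRNAs was not tested.

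In pool 3 at 2-3h none of the 36 members was higher in orb2-delta-zz (9.71% of all genes), and 2 were lower (4.97% of all genes), Rpn11 and Prosalpha1R. Rpn11 had 1228, 889 and 719 normalized counts in orb2-delta-zz, against 1932, 1119 and 1772 in wild type. The groups overlapped, and the log2 difference of -0.76 ± 0.24 (limma adjusted p = 0.0482) did not pass when replicate 2 or 3 of orb2-delta-zz or replicate 1 or 3 of wild type was left out (adjusted p = 0.138, 0.217, 0.239 and 0.193), where 1 member remained called. Without wild type replicate 2, 6 members were lower. Same-numbered replicates 1 and 2 of the genotypes deviated together here and replicate 3 did not. With the replicate number as a block 2 members were higher (18.1% of all genes), Prosalpha3 and Rpt1. That block called 6 lower (16.4% of all genes), Rpn11, Rpn8, Prosalpha1R, Rpt3R, Prosbeta2R2 and Rpt6R. Without a block, 2 members were higher and 7 lower at an unadjusted p under 0.05, for which the share of all genes is not given. On log2(TPM + 1) 4 members were higher (16.4% of all genes) and 5 lower (12%), and the 4 higher were all core mRNAs.

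The maternal phase showed fewer differences. In pool 1 at 0-1h, 4 of 34 members were lower in orb2-delta-zz (4.42% of all genes) and none was higher (5.62% of all genes). Same-numbered replicates deviated together here, and with the replicate number as a block the same 4 were lower (4.7% of all genes) and 2 were higher (7.29%), Rpn3 (0.27, limma adjusted p = 0.0466) and Rpn13 (0.26, limma adjusted p = 0.0425). Prosbeta5, which carries the chymotrypsin-like site, had 2214, 2206 and 2196 normalized counts in orb2-delta-zz, against 3115, 3031 and 3362 in wild type. The groups did not overlap, and the log2 difference was -0.52 ± 0.10 (limma adjusted p = 0.0075). It was not called without orb2-delta-zz replicate 2 (adjusted p = 0.0508).

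Rpn7 had 1466, 1351 and 1493 normalized counts in orb2-delta-zz, against 2057, 1777 and 2058 in wild type, again without overlap. Its log2 difference of -0.45 ± 0.12 (limma adjusted p = 0.0317) was lost without orb2-delta-zz replicates 2 or 3 or any of the 3 wild-type gradients (adjusted p = 0.0697 to 0.163). On log2(TPM + 1) neither Prosbeta5 (adjusted p = 0.221) nor Rpn7 (adjusted p = 0.486) was called. The 4 lower members were Prosbeta5, Rpn7, Prosalpha1 and Prosalpha1R, and 2 members were called without orb2-delta-zz replicates 2 or 3 or wild type replicates 2 or 3. Without orb2-delta-zz replicate 1, 3 members were lower and 2 were higher.

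In pool 3 at 0-1h no member was higher (4.45% of all genes) and 2 were lower (3.13%), Prosalpha1 and Prosalpha1R. At 1-2h, no member was higher in pool 1 (6.63% of all genes) or pool 3 (3.53%), and 1 was lower in each (4.8% of all genes in pool 1 and 5.04% in pool 3), Prosalpha1R. At an unadjusted p under 0.05, limma gave 1 higher and 6 lower members in pool 1 at 0-1h, 0 and 4 in pool 3 at 0-1h, 2 and 1 in pool 1 at 1-2h, and 0 and 1 in pool 3 at 1-2h. For that threshold the share of all genes is not given. Regulatory medians at 1-2h were 0.18 in pool 1 and 0.21 in pool 3, against 0.03 and 0.05 for core mRNAs and 0.11 and 0.07 for all genes.

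**Figure D3:**
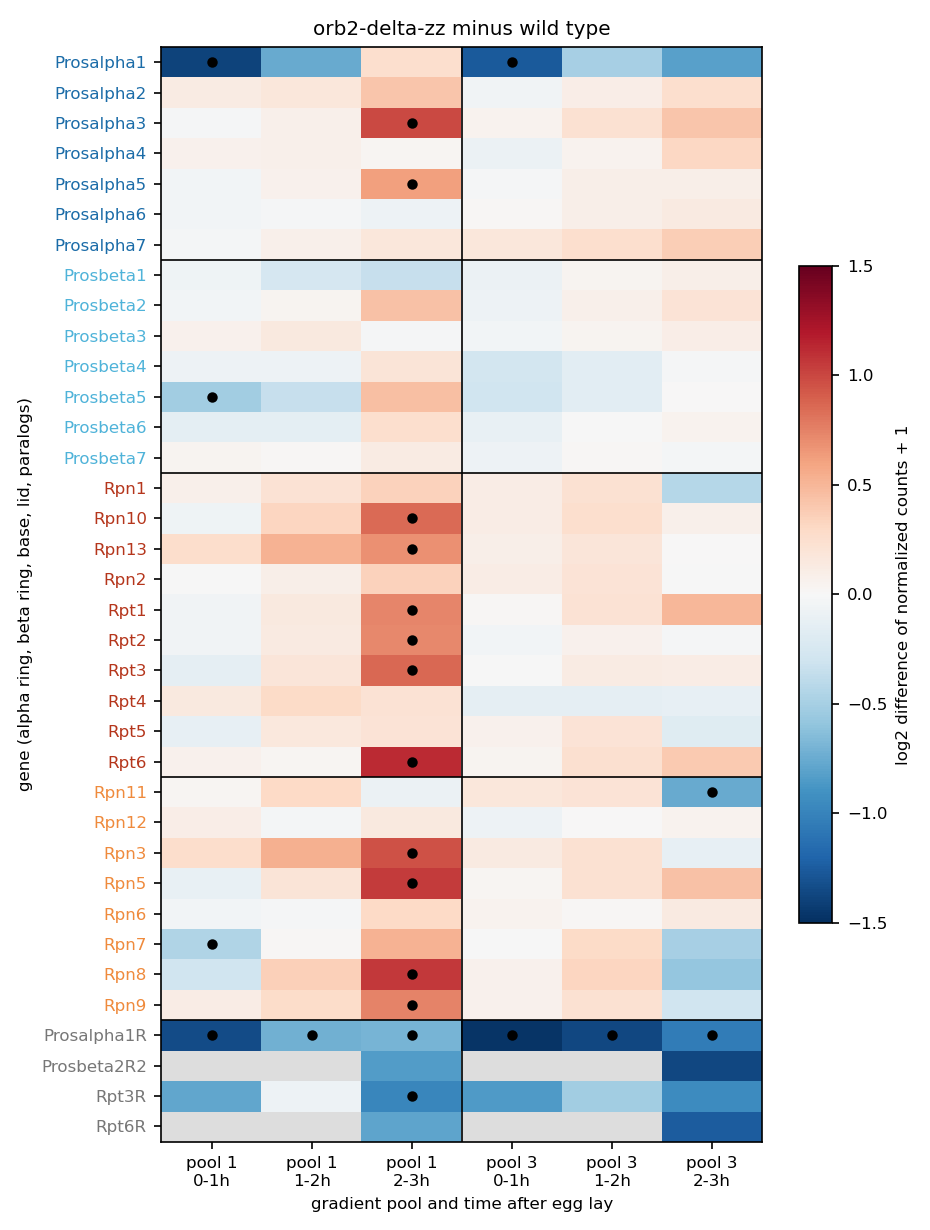
Log2 difference of normalized counts + 1, orb2-delta-zz minus wild type, for the 36 listed members (rows, by ring and particle) in each pool and window (columns), with a dot where the limma adjusted p was under 0.05 and grey where a member was not tested. The red block of base and lid mRNAs lies in pool 1 at 2-3h, and Prosalpha1R is blue with a dot in all 6 columns.

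Prosalpha1R was the member lower in orb2-delta-zz in all 6 comparisons of pool and window. Prosalpha1R (FBgn0050382, BDGP6 chromosome arm 2R, 7830413 to 7831771, minus strand) and Prosalpha1 (FBgn0263121, 2R, 7827303 to 7828678, minus strand) are neighbouring copies of an alpha ring gene, 1734 bases apart with 1 other gene starting between them. Their sequences are near-identical, so the split of reads between them in the authors' counting is uncertain, and their sum is given as well. Both also share exon sequence with a gene on the other strand (phr for Prosalpha1 and CG18853 for Prosalpha1R), from which their reads may not be told apart.

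In pool 1 at 0-1h Prosalpha1R had 4629, 4653 and 5447 normalized counts in orb2-delta-zz, against 11362, 11692 and 14441 in wild type. In pool 3 it had 2394, 3024 and 3366 in orb2-delta-zz, against 8494, 7751 and 7973 in wild type. The genotypes lay far apart, with log2 differences of -1.34 ± 0.14 in pool 1 (limma adjusted p = 6.58e-05) and -1.48 ± 0.14 in pool 3 (limma adjusted p = 3.38e-05).

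At 1-2h Prosalpha1R had 2495, 3624 and 2885 normalized counts in pool 1 of orb2-delta-zz, against 5211, 4228 and 5259 in wild type. In pool 3 it had 2390, 3267 and 2451 in orb2-delta-zz, against 8286, 6070 and 6566 in wild type. The log2 differences were -0.72 ± 0.18 (limma adjusted p = 0.0227) in pool 1 and -1.37 ± 0.18 (limma adjusted p = 0.000307) in pool 3. The call of pool 1 at 1-2h did not hold without orb2-delta-zz replicates 1 or 3 or wild type replicates 1 or 3 (adjusted p = 0.0774 to 0.0925), and without wild type replicate 3, 1 other member was higher.

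At 2-3h it had 796, 893 and 845 normalized counts in pool 1 of orb2-delta-zz, against 1513, 1452 and 1180 in wild type. In pool 3 it had 2861, 2516 and 3080 in orb2-delta-zz, against 5665, 5426 and 6462 in wild type. The log2 differences were -0.70 ± 0.15 (limma adjusted p = 0.00756) and -1.05 ± 0.15 (limma adjusted p = 0.00121), and the genotypes overlapped in none of the 6 comparisons. The call of pool 1 at 2-3h did not hold without wild type replicate 1 (adjusted p = 0.0511).

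Prosalpha1 was more variable. At 0-1h it had 503, 1165 and 623 normalized counts in pool 1 of orb2-delta-zz, against 1873, 1580 and 2224 in wild type, and in pool 3 348, 676 and 416, against 897, 994 and 1514. The genotypes did not overlap, with log2 differences of -1.39 ± 0.33 (limma adjusted p = 0.0199) and -1.26 ± 0.33 (limma adjusted p = 0.0388). Both calls were lost without orb2-delta-zz replicates 1 or 3 or wild type replicates 2 or 3 (adjusted p = 0.0507 to 0.121 in pool 1 and 0.0756 to 0.192 in pool 3). At 2-3h Prosalpha1 overlapped between genotypes in pool 1, with 444, 243 and 371 normalized counts in orb2-delta-zz, against 379, 293 and 213 in wild type.

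The sum of both copies was lower in orb2-delta-zz in every comparison without overlap. At 0-1h it was 5132 to 6071 in pool 1 of orb2-delta-zz, against 13235 to 16666 in wild type, and 2742 to 3781 in pool 3, against 8745 to 9487. At 1-2h it was 2776 to 4401 in pool 1, against 4899 to 6808, and 2857 to 3994 in pool 3, against 6862 to 9310. At 2-3h it was 1135 to 1240 in pool 1, against 1393 to 1892, and 2829 to 3506 in pool 3, against 6093 to 7061. Prosalpha1R made up most of the sum, with 64.2% to 91.1% in orb2-delta-zz and 76.5% to 95.0% in wild type.

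**Figure D4:**
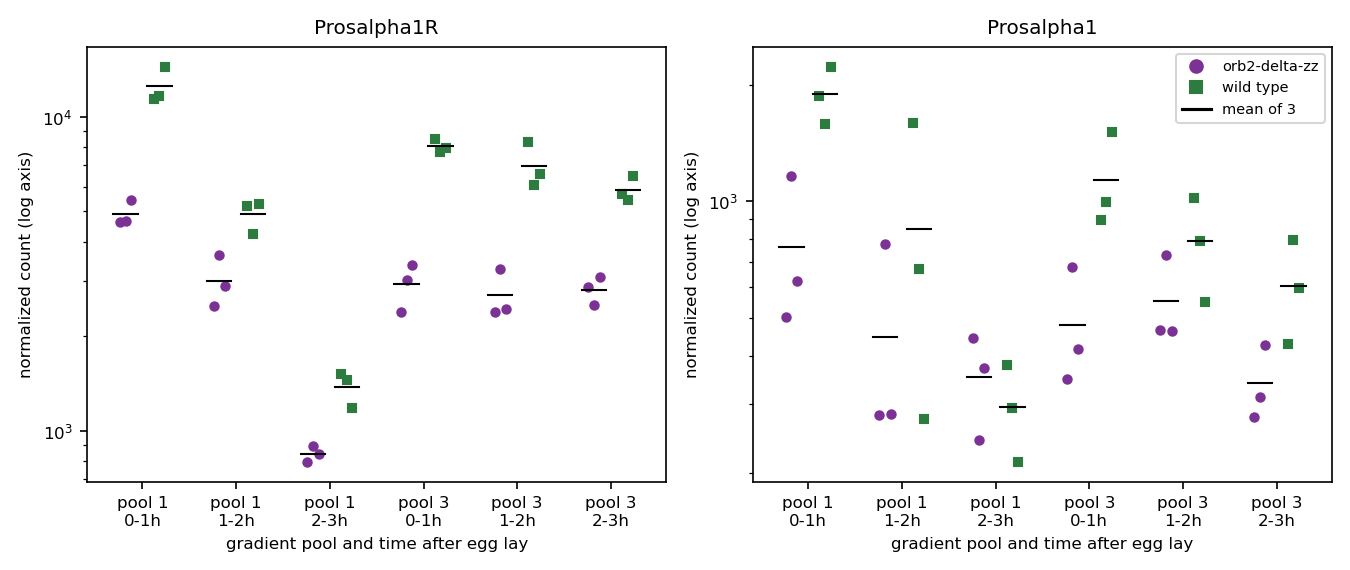
Normalized counts (log axes) of Prosalpha1R and its neighbouring copy Prosalpha1 in each library by pool and window, orb2-delta-zz (circles) left of wild type (squares), with the mean of 3 as a line. Prosalpha1R is lower in orb2-delta-zz in all 6 pairs of groups without overlap, while Prosalpha1 overlaps in both pools at 1-2h and in pool 1 at 2-3h.

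Rpt3R, the other paralog called, had 69.6, 69.9 and 44.4 normalized counts in pool 1 of orb2-delta-zz at 2-3h, against 158, 100.1 and 107 in wild type. The groups did not overlap, and the log2 difference was -0.98 ± 0.30 (limma adjusted p = 0.0336). It was called only with all 3 gradients or without wild type replicate 2, and the adjusted p without each other gradient was 0.0516 to 0.162.

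The change over time was also compared between genotypes. In pool 1 the change from 0-1h to 2-3h was more positive in orb2-delta-zz than in wild type for 16 of 34 members and more negative for none, against 12.3% and 2.28% of all genes. These were 10 regulatory mRNAs (Rpt1, Rpt2, Rpt3, Rpt6, Rpn10, Rpn3, Rpn5, Rpn7, Rpn8 and Rpn9), 5 core mRNAs (Prosalpha1, Prosalpha3, Prosalpha5, Prosbeta2 and Prosbeta5) and Prosalpha1R. Of them, Prosalpha1, Prosalpha1R, Prosbeta5 and Rpn7 were called lower in orb2-delta-zz at 0-1h in this pool. Prosalpha1 had mean TPM of 18.6 in orb2-delta-zz against 53.4 in wild type at 0-1h, and 5.69 against 4.75 at 2-3h. Prosalpha1R was lower at both windows, with 127 against 354 TPM and 14.0 against 22.8 TPM. Rpn8 had 5.13, 5.48 and 8.34 TPM in orb2-delta-zz at 2-3h, against 54.4, 68.1 and 88.0 TPM at 0-1h, and 2.88, 2.95 and 3.05 TPM in wild type at 2-3h, against 75.7, 81.4 and 128 TPM at 0-1h. The difference of the changes was 1.28 ± 0.28 (limma adjusted p = 0.00315). The median was 0.75 over regulatory mRNAs, 0.40 over core mRNAs and 0.15 over all genes.

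The number of members called for this difference of change moved with the gradient left out, and each such fit has fewer libraries. The regulatory count of 10 was 3 without orb2-delta-zz 0-1h replicate 2, 4 without orb2-delta-zz 0-1h replicate 3, 2 without orb2-delta-zz 2-3h replicate 3, 4 without wild type 0-1h replicate 1, 3 without wild type 2-3h replicate 1 and 6 without wild type 2-3h replicate 3. Without the first 3 of these the core count of 5 was 3, 4 and 3, and without the last 3 it was 4, 4 and 3. With median-ratio scaling 10 regulatory and 2 core mRNAs were called, where 16.8% of all genes were higher and 17.6% lower. In pool 3 no member was called (7.5% of all genes were higher and 3.14% lower), with 5 higher and 1 lower at an unadjusted p under 0.05 in limma. These percentages are of calls, and the share of all genes at the unadjusted threshold is not given. With median-ratio scaling, 2 members were called lower there (11.2% of all genes, with 10.6% higher). Without orb2-delta-zz 2-3h replicate 1, 1 member was called higher and 1 lower in pool 3, and likewise without wild type 2-3h replicate 2, while 1 was higher without wild type 0-1h replicate 1.

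The third comparison sets pool 3 against pool 1, which asks how each mRNA was distributed in the gradient. Subunit mRNAs did not share one distribution. Prosbeta5, Rpt4 and Rpn12 were higher in pool 3 at all 3 windows in both genotypes, while the lid mRNAs Rpn3, Rpn5 and Rpn11 were lower in pool 3 at 0-1h and 1-2h. Normalized counts are relative to all genes, whose median pool difference was -0.07 to 0.07. On log2(TPM + 1) the median of all genes was 1.09 to 1.85, so each direction given here is relative to all genes.

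At 1-2h the particles parted. In orb2-delta-zz 7 of 14 core mRNAs were higher in pool 3 and 1 lower, and 3 of 18 regulatory mRNAs were higher and 9 lower, with medians of 0.51 and -0.34. In wild type 6 core mRNAs were higher and 1 lower, and 3 regulatory mRNAs were higher and 8 lower, with medians of 0.40 and -0.37. Over all 34 members 11 were higher and 10 lower in orb2-delta-zz (36.9% and 37.6% of all genes), and 11 were higher and 9 lower in wild type (37.0% and 37.0% of all genes). At that window the pool difference ran against transcript length over the 32 subunits (Spearman's rho -0.50 in each genotype), while rho was 0.06 and 0.02 at 0-1h and -0.10 and 0.15 at 2-3h in orb2-delta-zz and wild type. These are descriptions over genes that share libraries.

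Prosbeta5 at 1-2h had 5786, 6944 and 5773 normalized counts in pool 3 of orb2-delta-zz, against 675, 1186 and 1114 in pool 1. Wild type had 7905, 6247 and 6589 in pool 3, against 1236, 1112 and 1328 in pool 1. The pools were widely separated, with log2 differences of 2.67 ± 0.20 in orb2-delta-zz (limma adjusted p = 1.6e-08) and 2.49 ± 0.20 in wild type (limma adjusted p = 3.47e-08).

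Rpn12 had 4397, 4557 and 4112 normalized counts in pool 3 of orb2-delta-zz at 1-2h, against 633, 949 and 724 in pool 1, and in wild type 4734, 3724 and 4563, against 764, 750 and 809. Its log2 differences were 2.52 in orb2-delta-zz and 2.48 in wild type. Rpt4 followed with 1.78 and 2.19, in the same order of genotypes.

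Rpn3 was the opposite case, with 5312, 4236 and 4370 normalized counts in pool 3 of orb2-delta-zz, against 19613, 20171 and 16982 in pool 1. In wild type it had 4320, 3172 and 4432 in pool 3, against 13569, 11350 and 14512 in pool 1. The log2 differences were -2.03 ± 0.17 in orb2-delta-zz (limma adjusted p = 4.39e-08) and -1.73 ± 0.17 in wild type (limma adjusted p = 2.43e-07). Rpn11 (-2.01 and -1.91) and the base ATPase Rpt5 (-1.84 and -1.89) were close to it, followed by Rpn13 (-1.39) in orb2-delta-zz and Rpn5 (-1.28) in wild type. The highest of the others were Prosbeta7 (1.12) in orb2-delta-zz and Rpt3R (1.12) in wild type.

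At 0-1h the particles did not part, with medians of 0.11 (core) and 0.21 (regulatory) in orb2-delta-zz and 0.17 and 0.16 in wild type. Of 34 members, 14 were higher in pool 3 and 8 lower in orb2-delta-zz (40.6% and 39.9% of all genes), and 15 were higher and 12 lower in wild type (39.8% and 40.6% of all genes). Without wild type replicate 2 the wild-type counts were 12 higher and 5 lower. Rpn12 had 3501, 4487 and 4871 normalized counts in pool 3 of orb2-delta-zz, against 1061, 1386 and 1482 in pool 1, a log2 difference of 1.71 (1.89 in wild type). Rpn7 (1.66 and 1.22), Prosbeta5 (1.53 and 1.30) and Rpn1 (1.51 and 1.48) were the other high ones. The lowest were Rpn3 (-1.01 and -0.88) and Rpn5 (-0.70 and -0.84) in orb2-delta-zz and wild type, with Prosbeta4 (-0.85) and Prosalpha1R (-0.76) in orb2-delta-zz and Rpn11 (-0.77) and Prosalpha1 (-0.76) in wild type.

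At 2-3h Rpt4 and Prosbeta5 had the highest pool differences in both genotypes. Rpt4 had 5585, 4703 and 5497 normalized counts in pool 3 of orb2-delta-zz, against 877, 863 and 996 in pool 1, and in wild type 6185, 5059 and 5939, against 842, 698 and 811. Its log2 differences were 2.53 ± 0.15 in orb2-delta-zz (limma adjusted p = 1.55e-08) and 2.87 ± 0.15 in wild type (limma adjusted p = 5.46e-09). Prosbeta5 had 2.42 and 2.87 and Prosalpha1R had 1.73 and 2.09, with Rpn12 at 1.66 in orb2-delta-zz and Rpn7 at 2.44 in wild type.

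Of 36 members at 2-3h, 15 were higher in pool 3 and 6 lower in orb2-delta-zz (29.9% and 30.1% of all genes). In wild type 24 were higher and none was lower (29.3% and 27.1% of all genes). The median of regulatory mRNAs was 0.21 in orb2-delta-zz and 0.88 in wild type, and that of core mRNAs was 0.47 and 0.63. Prosbeta2R2 (-1.36), Rpn5 (-0.90), Rpn13 (-0.89) and Rpn3 (-0.75) were the lowest called in orb2-delta-zz. The lowest called in wild type were Prosalpha2 (0.51), Prosbeta3 (0.56), Prosalpha5 (0.62) and Prosbeta4 (0.64), all 4 of which were below 0 with quantile normalization.

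The split between higher and lower calls moved with the scaling. On log2(TPM + 1), 34, 31 and 35 members were higher in pool 3 over the 3 windows in orb2-delta-zz, 32, 31 and 36 in wild type, and none lower, where 69.3% to 82% of all genes were higher and 2.97% to 7.52% lower. With quantile normalization the splits were 9 higher and 17 lower, 7 and 15, and 7 and 9 in orb2-delta-zz, and 7 and 17, 5 and 16, and 11 and 6 in wild type, over the same windows, where 27.8% to 34.5% of all genes were higher and 27.9% to 49.1% lower.

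**Figure D5:**
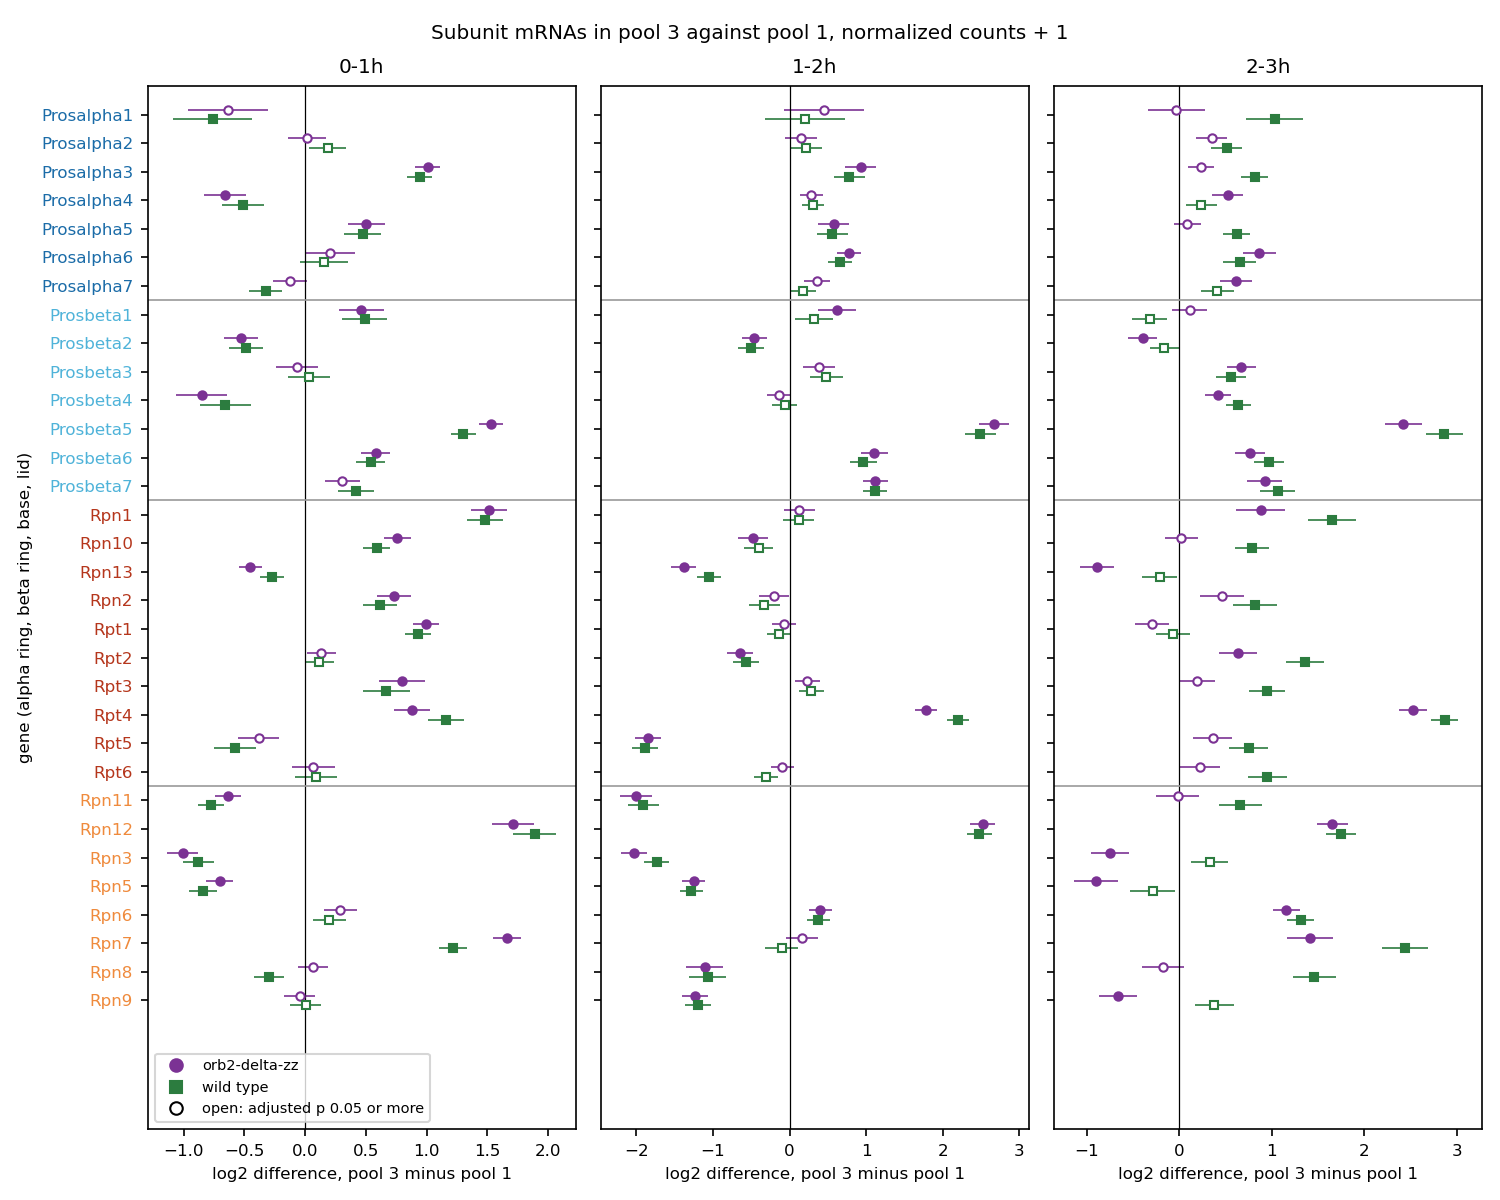
Log2 difference of normalized counts + 1 between pool 3 and pool 1 (± SE) for the 32 subunits at each window, orb2-delta-zz (circles) above wild type (squares), open where the limma adjusted p was 0.05 or more. Core mRNAs lie mostly right of 0 and many base and lid mRNAs left of it at 1-2h, while Rpt4, Rpn12 and Prosbeta5 lie right of 0 at all windows.

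The pool difference was then compared between genotypes, as the interaction of genotype and pool. No member was called higher or lower at 0-1h (0.279% and 0.239% of all genes), 1-2h (0.133% and 0.35%) or 2-3h (0.0523% and 0.0837%). At an unadjusted p under 0.05 limma gave 1 higher member at 0-1h, 1 lower at 1-2h and 12 lower at 2-3h. The share of all genes at that threshold is not given, so these counts describe the members only. All 18 regulatory mRNAs had a negative difference at 2-3h (median -0.70), against 9 of 14 core mRNAs (median -0.19), where the median of all genes was 0.03. These signs are descriptions over genes that share libraries, and no member was called in this fit. Pools 1 and 3 of one gradient deviated together, and with the gradient as a block 2 members were lower at 2-3h, Rpn8 and Rpn3, where 2.84% of all genes were higher and 2.5% lower.

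Rpn8 had 666, 491 and 500 normalized counts in pool 3 of orb2-delta-zz, against 604, 504 and 779 in pool 1. In wild type it had 895, 620 and 978 in pool 3, against 339, 276 and 278 in pool 1. The pools overlapped in orb2-delta-zz and lay apart in wild type. The difference of the pool differences was -1.64 ± 0.33 (limma adjusted p = 0.102), and with the gradient as a block its adjusted p was 0.0155. For Rpn3 it was -1.08 ± 0.29 (limma adjusted p = 0.14), with an adjusted p of 0.0414 with that block.

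Other genes of the pathway were taken from a list of ubiquitin, shuttle, chaperone and regulator genes, of which 24 were tested. In pool 1 at 2-3h, 5 of 24 were higher in orb2-delta-zz (14.4% of all genes) and none lower (9.48%). These were the polyubiquitin genes Ubi-p63E (1.37) and Ubi-p5E (1.26), the proteasome-bound deubiquitinase Usp14 (0.70), the Nrf2-type transcription factor cnc (0.66) and the shuttle receptor rngo (0.65). Ubi-p63E was also higher in pool 1 at 0-1h (1.41, limma adjusted p = 0.0282) and 1-2h (0.66, limma adjusted p = 0.0157). Ubiquitin-coding repeats are near-identical between genes, so the split of reads among them is uncertain. In pool 3, where 9.71% of all genes were higher at 2-3h, 3 of 24 were higher, the F-box gene ntc (1.20), the peptide N-glycanase Pngl (0.83) and the shuttle receptor Rad23 (0.45), and none was called at 0-1h or 1-2h.

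Over time in pool 3, 3 of 24 pathway genes rose and 13 fell in orb2-delta-zz (26.3% and 37.3% of all genes), and 2 rose and 15 fell in wild type (23.3% and 45.4%). Keap1, the inhibitor of cnc, rose by 1.57 in orb2-delta-zz and 1.80 in wild type, and the cnc partner maf-S rose by 0.90 and 0.89. Pomp, the chaperone of core assembly, rose in orb2-delta-zz (0.37, limma adjusted p = 0.049), with a difference of 0.07 in wild type (limma adjusted p = 0.728). Sem1, a small lid subunit that does not carry an Rpn symbol, fell by 2.90 in orb2-delta-zz and by 2.55 in wild type. In pool 1, 3 of 24 rose and 18 fell in orb2-delta-zz (14.1% and 66.1% of all genes), and 3 rose and 19 fell in wild type (15.3% and 69.8%).

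Between pools the ubiquitin genes were at both ends. RpS27A and RpL40, which code for ubiquitin fused to a ribosomal protein, were lower in pool 3 by log2 differences of -3.75 and -3.06 at 0-1h in orb2-delta-zz and of -3.65 and -2.56 in wild type. Ubi-p63E was higher in pool 3, by 4.04 in orb2-delta-zz and 5.15 in wild type at 0-1h, and by 0.62 and 1.78 at 2-3h. Pomp was higher in pool 3 at all 3 windows, by 0.50, 1.17 and 1.08 in orb2-delta-zz and by 0.66, 1.43 and 1.36 in wild type.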

How the data were processed

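The normalized counts deposited for each gene (a signal per library, named as DESeq2 normalized counts per the labels) were scaled by the authors separately for each window, and TPM of the same libraries was deposited beside them. Both units differ by 1 factor per gene and 1 per library (SD of log2 0.00643), so whole reads and true depth were not recovered. DESeq2 1.42.1, Trim Galore 0.6.5 and Salmon 1.9.1 were used, per the submitters' processing notes. A genome build was not given in the sources used here. Libraries were directional and depleted of ribosomal RNA, per the labels' protocols. Gene symbols and coordinates are those of Ensembl release 115 (BDGP6), where 72 of 10226 listed genes had no symbol.

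Genotype, pool and interaction contrasts were fitted at each window on log2(normalized count + 1), keeping genes whose mean reached 10, over 12 libraries in 4 groups (limma 3.58.1 with trend, R 4.3.3). Time was fitted over all 36 libraries on log2(TPM + 1) of genes with a mean TPM of at least 1, since normalized counts were scaled per window. Calls are two-sided with a Benjamini-Hochberg adjusted p under 0.05 over all genes tested. Fold differences understate low genes because of the pseudocount. No count model was run. Tables and figures used matplotlib 3.10.9, scipy 1.17.1, pandas 2.3.3, numpy 2.4.6 and Python 3.11.15, and the fits were tested on simulated data. Pools of one gradient deviated together (correlation 0.125 to 0.831 for the 18 pairs), so fits with the gradient as a block were run too and are given where they change a call. Same-numbered replicates of the genotypes deviated together in pool 1 at 0-1h (correlations 0.223, 0.151 and 0.244) and at 2-3h (0.622, 0.632 and 0.22). In pool 3 at 2-3h replicates 1 and 2 did so and replicate 3 did not (0.761, 0.742 and -0.00746). This pairing was read from the values and not from the labels. Fits with the replicate number as a block are given for these pools and windows where they change a call.

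The members and lists were chosen with earlier results of these data known. Any listed member could be named. Values by library were kept for members called in a comparison, and where over 8 were called for the 4 highest and 4 lowest log2 differences, some of which are given by their difference alone. The pathway list was counted whole and its called genes could be named. Ring, base, lid and paralogs follow the symbols. Of the 36 listed members, 15 share exon sequence with a gene on the other strand. The libraries are directional, but how strand was used in counting is not stated. Sequences were not analysed here.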

Additional observations from a re-analysis of the deposited data

Results flagged for a closer look

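The change from 0-1h to 2-3h in pool 1 was not alike in orb2-delta-zz and wild type for 16 members, by the test of the difference itself. All were more positive in orb2-delta-zz, as were 12.3% of all genes, while 2.28% were more negative. Leaving out 1 gradient at a time gave 5 to 17 called members. In the alpha ring the log2 differences of the change (TPM + 1) were 1.68 for Prosalpha1, 1.10 for Prosalpha3 and 0.77 for Prosalpha5, and Prosalpha1R had 0.80. In the beta ring they were 0.60 for Prosbeta2 and 1.05 for Prosbeta5. In the base they were 0.97 for Rpn10, 0.88 for Rpt1, 0.85 for Rpt2, 1.02 for Rpt3 and 1.13 for Rpt6. In the lid they were 0.76 for Rpn3, 1.25 for Rpn5, 0.90 for Rpn7, 1.28 for Rpn8 and 0.73 for Rpn9. Prosalpha1, Prosalpha1R, Prosbeta5 and Rpn7 were called lower in orb2-delta-zz at 0-1h in that pool. The split of reads between Prosalpha1 and Prosalpha1R is uncertain. The test was fitted over all 36 libraries, and the summed maternal markers of that pool at 2-3h also differed, with 909 to 1491 TPM in orb2-delta-zz against 363 to 547 TPM in wild type. Their part in the difference was not tested.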

How the results depend on the processing

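The number of members called between genotypes moved by over 1.5 times under these settings. On log2(TPM + 1) it was 2 in pool 1 at 0-1h (4 as reported), 2 in pool 3 at 1-2h (1) and 9 in pool 3 at 2-3h (2). Of all genes, 1.19%, 5.03% and 16.4% were higher there and 1.75%, 7.43% and 12% lower, in that order. With only the 6 libraries compared in the fit, the number of members was 2 in pool 1 at 0-1h and 8 in pool 1 at 2-3h (14). Of all genes, 2.72% and 10.2% were higher in these fits and 2.4% and 6.35% lower. In pool 1 at 1-2h (1) the number of members was 2 with a pseudocount of 5, 2 with no filter on low values and 3 with quantile normalization. Of all genes, 6.82%, 6.24% and 6.78% were higher and 4.93%, 4.75% and 7.2% lower, in the same order. The interaction of genotype and pool at 2-3h (0) gave 1 on log2(TPM + 1), 3 with quantile normalization and 2 with the gradient as a replicate block. Of all genes, 1.43%, 2.76% and 2.84% were higher and 0.848%, 1.63% and 2.5% lower. The change over time between genotypes in pool 3 (0) gave 2 with no filter and 2 with median-ratio scaling. Of all genes, 7.43% and 10.6% were higher and 3.81% and 11.2% lower. Between pools, log2(TPM + 1) called 34 members at 0-1h and 35 at 2-3h in orb2-delta-zz (22 and 21) and 31 at 1-2h in wild type (20).

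In pool 3 at each window and in pool 1 at 1-2h, same-numbered replicates of the genotypes did not all deviate together (correlations of -0.737 to 0.761). In pool 3 at 2-3h replicates 1 and 2 did (0.761 and 0.742) and replicate 3 did not (-0.00746). In the deposited library names, replicate 1 at 1-2h carries unlike numbers in the genotypes, and the other replicates carry like numbers. Whether the replicate numbers pair samples is therefore not settled. With the replicate number as a block 3 members were called in pool 1 at 1-2h, 2 higher (7.07% of all genes) and 1 lower (5.14%). It called 8 in pool 3 at 2-3h, 2 higher (18.1% of all genes) and 6 lower (16.4%). In the change over time between genotypes in pool 3 it called 1, which was lower (4.83% of all genes, with 7.72% higher). In pool 1 it gave 6 at 0-1h and 17 at 2-3h. It left the counts of the other genotype and time contrasts as they were, and no named gene lost its call.

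On log2(TPM + 1) these pool differences changed sign to positive values. In orb2-delta-zz at 0-1h they were 0.43 for Rpn3, 0.59 for Prosbeta4, 0.68 for Prosalpha1R and 0.73 for Rpn5, and in wild type 0.45 for Rpn3, 0.48 for Rpn5, 0.55 for Rpn11 and 0.55 for Prosalpha1. At 1-2h they were 0.011 for Rpt5 and 0.47 for Rpn13 in orb2-delta-zz, and 0.067 for Rpn3 and 0.51 for Rpn5 in wild type. At 2-3h in orb2-delta-zz they were 0.30 for Prosbeta2R2, 1.62 for Rpn5, 1.63 for Rpn13 and 1.76 for Rpn3. With quantile normalization, wild type at 2-3h gave -0.27 for Prosalpha2, -0.23 for Prosbeta3, -0.00815 for Prosalpha5 and -0.074 for Prosbeta4. With median-ratio scaling the change over time in pool 1 was 0.95 for Prosalpha5, 0.96 for Prosbeta1, 0.99 for Prosalpha3 and 1.01 for Rpt1 in orb2-delta-zz, and 0.34 for Prosalpha6, 0.36 for Rpt1, 0.42 for Prosalpha5 and 0.84 for Rpn12 in wild type. The cause was not tested.

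Leaving out 1 gradient at a time gave 2 to 5 called members between genotypes in pool 1 at 0-1h, 0 to 1 at 1-2h and 6 to 15 at 2-3h, and 1 to 2, 1 to 1 and 1 to 6 in pool 3. The interaction gave 0 to 0 at each window. Between pools it gave 20 to 22, 16 to 17 and 16 to 16 in orb2-delta-zz and 17 to 22, 15 to 22 and 18 to 24 in wild type. Over time it gave 31 to 33 in pool 1 and 22 to 26 in pool 3 of orb2-delta-zz, and 32 to 33 and 19 to 20 in wild type, and between genotypes 5 to 17 in pool 1 and 0 to 2 in pool 3. Of the values of named genes and of the medians of core minus regulatory mRNAs under an alternative, 1268 kept their direction and call, 120 lost the call, 28 changed sign and 19, all of them medians, moved by more than the spread. Read depth per gene is unknown, so counting error was not separated from the spread between gradients.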
